A study of Mus musculus with 163 samples.

Results

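A set of 8 genes of cholesterol biosynthesis was chosen by name, namely Hmgcs1, Mvk, Fdps, Fdft1, Sqle, Lss, Cyp51 and Dhcr7. Rows of the count table were matched to them through their Entrez identifiers, and 7 of the 8 had a row among the 21950 genes of the table. Dhcr7 was not analysed here. The same 7 measured genes were taken to every comparison, but Mvk had too few reads to be tested in some.

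Polyadenylated RNA of single mouse oocytes was measured by Smart-seq2, a protocol that reads full-length transcripts of a single cell. Growing oocytes (GROs) were of 3 sources and fully grown oocytes (FGOs) of 4. iPSC-derived oocytes (23 GROs, 24 FGOs) were made from BVSC-iPSC, 1 female line of induced pluripotent stem cells with Blimp1-Venus and Stella-ECFP reporters, whose germ cell-like cells were combined with somatic cells of E12.5 gonads from outbred mice and cultured. Gonad-derived oocytes (24 GROs, 24 FGOs) grew from E12.5 gonads that were dissociated, reaggregated with their own germ cells and taken through a similar culture. The 6 dpp oocytes (24 FGOs) were inside follicles of mice at 6 days post partum when culture began, and in vivo oocytes (24 GROs, 20 FGOs) grew in the ovary. The strain and age of the mice that gave the in vivo oocytes are not given in the sources used here. Follicle cells and the zona pellucida had been removed from every oocyte, and the medium of the growth culture held follicle-stimulating hormone. That culture was shorter for gonad-derived and 6 dpp follicles than for iPSC-derived ones. The study states that iPSC-derived and gonad-derived GROs were larger than in vivo GROs. Oocyte size was not taken into account here, so comparisons that use GROs are not matched for size.

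Cells build cholesterol from acetyl-CoA. The first enzymes make mevalonate, the next turn it into farnesyl diphosphate, squalene synthase joins pairs of farnesyl units into squalene, and the last enzymes close the ring and trim lanosterol down to cholesterol. The transcription factor SREBP2, held in the endoplasmic reticulum by SCAP and the INSIG proteins while sterols are plentiful, switches these genes on together when sterols run low. Mouse oocytes are known to make little cholesterol of their own and to receive products of the pathway from the cumulus cells around them, so the transcripts of the pathway in the oocyte itself are the quantity described here.

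The labels name no animal, embryo or culture behind an oocyte. Each group therefore counted as 1 sample, oocytes of a group are not replicates of a condition, and no test or p-value is given. A level is the pooled CPM of a group, that is its summed reads per 1000000 summed reads, with an exact Poisson 95% interval that covers counting error only. The lowest, median and highest CPM over oocytes show the spread. A log2 ratio compares pooled CPM + 0.5 of 2 groups, which understates differences of genes of low level, and "at least 2-fold" means a log2 ratio of 1 or more, or of -1 or less. Depth ran from 2.17 to 13.7 M (1000000) reads per oocyte (median 6.93 M) and from 145 to 166 M summed reads per group, so 3 reads in a group, the limit that a count of 0 allows, correspond to between 0.0181 and 0.0207 CPM.

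The libraries carried the oocyte label in their markers. The 12 oocyte markers, among them Gdf9, Bmp15 and Zp3, summed to between 20390 and 67016 CPM in every oocyte. Of 14 granulosa and 7 cumulus markers, 12 and 6 had a row. Summed granulosa markers ranged from 23.3 to 159 CPM in GROs, where Cyp19a1, Nr5a2 and Gata4 made up most of the sum, up to 211 CPM in gonad-derived FGOs, to 430 CPM in the in vivo FGOs and to 2452 CPM in 6 dpp FGOs. Cumulus markers summed to between 7.78 and 56.1 CPM, most of it Pfkp, while the defining cumulus gene Ptx3 had a pooled level of at most 0.0241 CPM in every group and blood markers never summed to more than 1.44 CPM in an oocyte. Gja1, Hsd3b1, Inhba, Hsd17b1 and Cyp11a1, summed as somatic trace genes, had medians between 2.86 and 6.24 CPM in the GRO groups and in the cultured iPSC-derived and gonad-derived FGOs, against 13.2 CPM in the in vivo FGOs and 19.5 CPM in 6 dpp FGOs. They passed 50 CPM in 1 gonad-derived, 6 of 24 6 dpp and 2 of 20 in vivo FGOs.

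Of the FGOs, 7 stood apart. Gonad-derived FGOs 5 and 22 were shallow, with 2.17 and 2.91 M reads. In vivo FGO 7 and 6 dpp FGO 12 had median correlations of 0.969 with the rest of their groups, and in vivo FGOs 16 and 19 and 6 dpp FGO 12 held 264, 311 and 2222 CPM of somatic trace genes. The 6 dpp FGO 10 held 525 CPM of these genes but was not among the 7. It therefore stays in the values given without the oocytes that stood apart. Gonad-derived FGO 19 correlated least with its group, at a median Pearson r of 0.929 against at least 0.977 for the others of the group, and it was singled out after its values were seen. Values without them are given beside the results that they moved.

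In vivo GROs divided by their numbers. Those numbered 1 to 16 in the labels and those numbered 17 to 24 did not overlap for 6.73% of 12447 genes, with 5.45% of all these genes higher and 1.29% lower in the latter. Divided at the same number, no other group had more than 0.0647% of such genes, but divisions at other numbers were not examined. Depths of these sets of in vivo GROs were alike, with medians of 6.87 and 6.82 M reads. The labels do not say what the numbers stand for, so whether they mark an animal, a collection or a plate cannot be told apart, and this division was noticed after the values of Hmgcs1 were seen. Ratios of single measured genes that it moves by more than the spread between oocytes are given for each set of numbers.

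Promoter sequences are shown for the 4 of 7 measured genes that matched an entry of the RefSeq table used here (GRCm38.p6), from 250 bases before to 50 bases after an annotated transcript start. They are shown for the motifs of known regulators of the pathway that lie in front of these enzymes. Capitals mark 3 motifs searched on both strands: TCACNCCAC, a form of the sterol regulatory element read by SREBP2, CCAAT (or its complement ATTGG), read by NF-Y, and GGGCGG (or CCGCCC), read by Sp1. Hmgcs1 lies at chr13:119690101-119690400 on the plus strand, Mvk at chr5:114444019-114444318 on the plus strand, Lss at chr10:76531355-76531654 on the plus strand and Cyp51 at chr5:4104648-4104947 on the minus strand.
Hmgcs1: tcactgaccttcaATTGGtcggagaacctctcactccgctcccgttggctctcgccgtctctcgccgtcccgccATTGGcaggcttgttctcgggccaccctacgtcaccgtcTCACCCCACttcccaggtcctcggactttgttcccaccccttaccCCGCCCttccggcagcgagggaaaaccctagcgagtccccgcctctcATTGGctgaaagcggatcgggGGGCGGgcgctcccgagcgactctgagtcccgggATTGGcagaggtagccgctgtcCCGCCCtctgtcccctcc
Mvk: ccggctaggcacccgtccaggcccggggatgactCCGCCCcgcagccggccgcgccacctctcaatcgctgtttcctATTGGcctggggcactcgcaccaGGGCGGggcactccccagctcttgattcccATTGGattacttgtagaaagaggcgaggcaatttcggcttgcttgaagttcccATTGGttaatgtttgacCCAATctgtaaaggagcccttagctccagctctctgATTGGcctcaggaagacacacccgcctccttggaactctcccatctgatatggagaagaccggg
Lss: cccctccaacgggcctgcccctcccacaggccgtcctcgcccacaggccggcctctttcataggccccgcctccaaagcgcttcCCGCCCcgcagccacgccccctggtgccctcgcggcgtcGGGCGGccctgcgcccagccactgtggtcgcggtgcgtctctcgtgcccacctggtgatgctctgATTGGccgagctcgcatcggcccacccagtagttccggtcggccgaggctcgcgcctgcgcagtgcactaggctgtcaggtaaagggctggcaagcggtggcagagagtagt
Cyp51: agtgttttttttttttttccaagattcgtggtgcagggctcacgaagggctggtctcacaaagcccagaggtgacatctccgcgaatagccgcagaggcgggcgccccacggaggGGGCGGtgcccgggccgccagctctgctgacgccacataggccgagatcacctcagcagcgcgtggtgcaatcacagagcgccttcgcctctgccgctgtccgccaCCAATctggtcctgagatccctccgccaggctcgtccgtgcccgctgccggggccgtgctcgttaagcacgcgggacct
The Hmgcs1 promoter held 1 TCACNCCAC match, whose first base lay 137 bases before the transcript start, together with 4 CCAAT and 3 GGGCGG matches. Mvk held 5 CCAAT and 2 GGGCGG matches, Lss 1 and 2, and Cyp51 1 of each, and the letters TCACNCCAC were not in these 3 windows. Over all 32851 promoters of the table, 1.24% held TCACNCCAC, 37.4% held CCAAT and 35.7% held GGGCGG. These are matches of letters and show no binding. Promoters of Fdps, Fdft1 and Sqle are named only.

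Compared per length, the measured genes were far from even. Mean RPKM over the 7 groups (reads per kilobase of exonic length per 1000000 reads) was 182 for Fdft1, squalene synthase, and 86.4 for Hmgcs1, the synthase that makes HMG-CoA. Sqle, squalene epoxidase, followed with 13.1 RPKM and Fdps, which makes farnesyl diphosphate, with 9.93 RPKM. Cyp51, the lanosterol demethylase, had 3.94 RPKM, Lss, which closes the sterol ring, 2.63 RPKM, and Mvk, mevalonate kinase, 0.607 RPKM. Fdft1 thus exceeded Mvk, another enzyme of the same route, by more than 2 orders of magnitude.

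This order held in nearly every oocyte at its upper end. Fdft1 was above Hmgcs1 per length in 162 of all oocytes, the exception being gonad-derived FGO 19, and Hmgcs1 was above Sqle in every oocyte. Sqle and Fdps were not separated beyond the spread, since Sqle was higher in 122 oocytes of all groups and only in 6 of 24 iPSC-derived FGOs. Cyp51 and Lss likewise overlapped in every group, with Cyp51 higher in 119 oocytes of all groups and in 9 of 24 6 dpp FGOs. Lss exceeded Mvk in every oocyte but 1. The exonic length belongs to 1 transcript model chosen at random for each gene (7880 bases for Lss, 1331 for Mvk), so a level per length is understated where oocytes use a shorter transcript than the model.

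**Figure D1:**
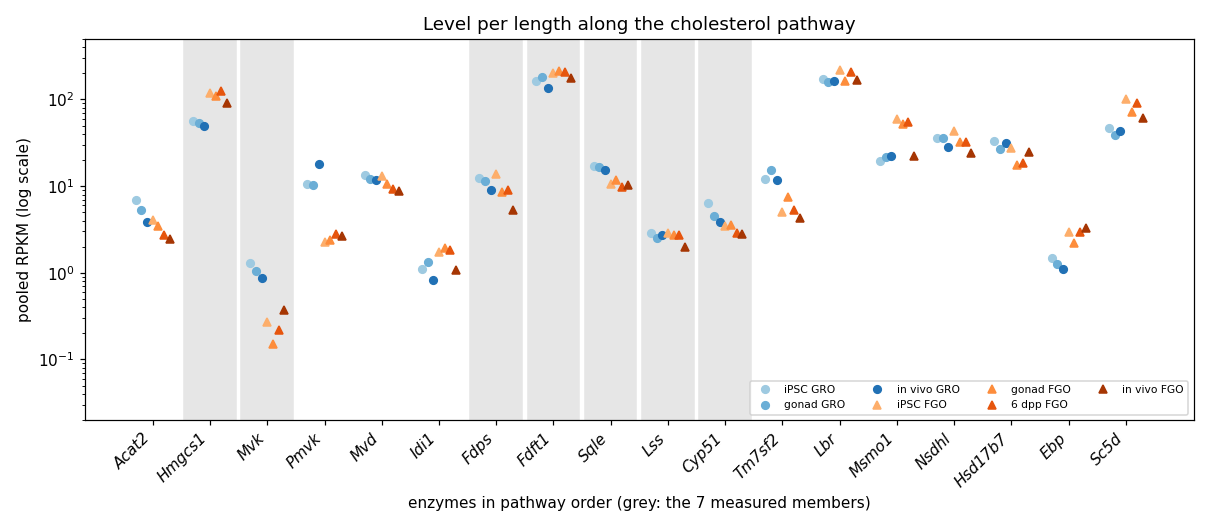
Pooled RPKM (log axis) of 18 enzymes in pathway order, 1 symbol per group, circles for GROs and triangles for FGOs, with the 7 measured members on grey. Fdft1 and Hmgcs1 lie between 49.9 and 211 RPKM in all groups, while Mvk lies between 0.153 and 1.31 RPKM.

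By reads, Fdft1 made up between 71.2 and 77.0% of the summed CPM of the 7 genes in each group. Summed levels were 907 CPM in iPSC-derived, 973 CPM in gonad-derived and 760 CPM in the in vivo GROs. FGOs had 1167 CPM (iPSC-derived), 1178 CPM (gonad-derived), 1187 CPM (6 dpp) and 974 CPM (in vivo). The sum was higher in FGOs than in GROs of each source, with log2 ratios of 0.36 in iPSC-derived, 0.28 in gonad-derived and 0.36 in the in vivo oocytes. In vivo oocytes had the lowest sum of their stage at both stages. In vivo GROs 1 to 16 summed to 811 CPM and GROs 17 to 24 to 658 CPM, which gave growth ratios of 0.26 and 0.57. Scaled to library totals, every 6 dpp FGO (lowest 1084 CPM) lay above every in vivo FGO (highest 1073 CPM), at a log2 ratio of 0.29. Of single genes, 0.0773% lacked overlap in that direction. With TMM or DESeq2 size factors that lowest 6 dpp FGO fell below that highest in vivo FGO, so the lack of overlap rests on the scaling. As the sum is mostly Fdft1, the single genes are described next in the order of the pathway.

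Hmgcs1 (Entrez 208715, chr13:119690351-119708260) showed the clearest pattern. Its pooled level in GROs was 115 CPM in iPSC-derived (95% interval 114 to 117), 109 CPM in gonad-derived (108 to 111) and 101 CPM in the in vivo oocytes (99.3 to 102). Over oocytes it ran from 74.5 through a median of 118 to 139 CPM in iPSC-derived, from 83.7 through 106 to 161 CPM in gonad-derived and from 41.4 through 114 to 139 CPM in the in vivo GROs. The 3 sources thus overlapped at the GRO stage, but 8 of 24 in vivo GROs lay below every gonad-derived GRO. In vivo GROs fell into separate clusters, with these 8 oocytes at 41.4 to 74.4 CPM and the other 16 at 100.8 to 139.0 CPM. The 8 low oocytes are those numbered 17 to 24 and the 16 high ones those numbered 1 to 16, with pooled levels of 61.0 and 121 CPM.

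In FGOs the pooled level of Hmgcs1 was 237 CPM in iPSC-derived, 222 CPM in gonad-derived, 252 CPM in 6 dpp and 184 CPM in the in vivo oocytes. The lowest, median and highest oocytes were at 182, 241 and 304 CPM in iPSC-derived, 176, 218 and 317 CPM in gonad-derived, 196, 251 and 319 CPM in 6 dpp and 140, 185 and 228 CPM in the in vivo FGOs. Scaled to library totals, no FGO of any source overlapped with GROs of the same source. In vivo the margin was narrow, since the lowest FGO (number 7, 139.8 CPM) lay just above the highest GRO (139.0 CPM). With TMM or DESeq2 size factors in place of library totals, that FGO lay below that GRO, so the in vivo stages overlapped.

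The log2 ratio of Hmgcs1 from GROs to FGOs was 1.04 in iPSC-derived, 1.02 in gonad-derived and 0.87 in the in vivo oocytes. It was therefore at least 2-fold in the cultured oocytes and short of it in vivo, although whether the sources differ in this was not tested. Without gonad-derived FGO 19 the gonad-derived ratio was 0.99, and without the 3 in vivo FGOs that stood apart the in vivo ratio was 0.92. Against in vivo GROs 1 to 16 alone the ratio was 0.61 and against GROs 17 to 24 alone it was 1.59, so in vivo the side of 2-fold rests on which GROs are taken. Among all genes tested, groups without overlap in the higher direction were found for 2.39% in iPSC-derived, 1.36% in gonad-derived and 2.26% in the in vivo oocytes. Among FGOs, 20 of 24 6 dpp oocytes lay above the highest in vivo oocyte, at a log2 ratio of 0.45.

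Mvk (Entrez 17855, chr5:114444264-114460591), which phosphorylates mevalonate, went the other way and was the rarest transcript. GROs had 1.74 CPM in iPSC-derived (95% interval 1.54 to 1.95), 1.40 CPM in gonad-derived (1.22 to 1.60) and 1.17 CPM in the in vivo oocytes (1.01 to 1.35). FGOs had 0.361 CPM in iPSC-derived (0.276 to 0.465), 0.203 CPM in gonad-derived (0.140 to 0.285), 0.295 CPM in 6 dpp (0.217 to 0.392) and 0.490 CPM in the in vivo oocytes (0.383 to 0.618). Every GRO had at least 1 read of Mvk, whereas no read was found in 7 of 24 iPSC-derived, 9 of 24 gonad-derived, 7 of 24 6 dpp and 4 of 20 in vivo FGOs.

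Ranges of Mvk ran from 0.344 to 3.32 CPM in iPSC-derived, 0.174 to 3.68 CPM in gonad-derived and 0.299 to 2.20 CPM in the in vivo GROs, with medians of 1.61, 0.992 and 1.10 CPM. In FGOs the highest oocytes were at 1.06, 0.643, 1.39 and 1.47 CPM in iPSC-derived, gonad-derived, 6 dpp and the in vivo oocytes, with medians of 0.283, 0.144, 0.149 and 0.331 CPM. The stages overlapped in every source. The log2 ratio of FGOs to GROs was -1.38 in iPSC-derived, -1.43 in gonad-derived and -0.75 in the in vivo oocytes. The in vivo ratio was -0.92 against GROs 1 to 16 and -0.35 against GROs 17 to 24. At this level the ratio depends on the pseudocount, and with 2 CPM in place of 0.5 CPM it was -0.66 and -0.63 in iPSC-derived and gonad-derived oocytes. With 0.1 CPM it was -1.996 and -2.31 in the same sources. The in vivo ratio was -0.35 with 2 CPM and -1.10, past 2-fold, with 0.1 CPM. The highest Mvk of 6 dpp FGOs was in oocyte 12, which was richest in somatic trace genes, and that of in vivo FGOs was in oocyte 7. The part of other cells in these values was not tested.

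Fdps (Entrez 110196, chr3:89093588-89101967) stands where the branches to sterols, ubiquinone and dolichol divide. Its pooled level was 23.7 CPM in iPSC-derived, 21.8 CPM in gonad-derived and 17.0 CPM in the in vivo GROs. In FGOs it was 26.2 CPM in iPSC-derived, 16.2 CPM in gonad-derived, 17.0 CPM in 6 dpp and 10.2 CPM in the in vivo oocytes. The iPSC-derived FGOs were thus highest and the in vivo FGOs lowest of all groups.

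Over oocytes, Fdps ran from 15.6 through a median of 24.0 to 30.6 CPM in iPSC-derived, 13.3 through 22.9 to 32.2 CPM in gonad-derived and 12.52 through 17.1 to 24.8 CPM in the in vivo GROs. In FGOs it ran from 14.5 through 24.9 to 48.5 CPM in iPSC-derived, 7.37 through 15.4 to 37.8 CPM in gonad-derived, 7.48 through 17.3 to 24.8 CPM in 6 dpp and 4.47 through 8.95 to 19.2 CPM in the in vivo oocytes. All groups overlapped with their neighbours. The ratio of iPSC-derived to gonad-derived FGOs was 0.68 on the log2 scale and that of 6 dpp to in vivo FGOs 0.71, which made Fdps the measured gene with the largest ratio in each. From GROs to FGOs the ratio was -0.71 in vivo, -0.42 in gonad-derived and 0.14 in iPSC-derived oocytes. Without the in vivo FGOs that stood apart (7, 16 and 19), which held 19.2, 13.6 and 17.9 CPM, the in vivo ratio was -0.89.

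Fdft1 (Entrez 14137, chr14:63145150-63181687) commits farnesyl units to sterols and was among the abundant transcripts, above 96.1 to 97.5% of expressed genes per length. Its pooled level was 661 CPM in iPSC-derived, 749 CPM in gonad-derived and 554 CPM in the in vivo GROs. FGOs had 831 CPM in iPSC-derived, 865 CPM in gonad-derived, 854 CPM in 6 dpp and 718 CPM in the in vivo oocytes. It was higher in FGOs than in GROs in each source and lowest in vivo at each stage.

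The lowest, median and highest GROs had 508, 642 and 793 CPM of Fdft1 (iPSC-derived), 663, 744 and 855 CPM (gonad-derived) and 442, 551 and 698 CPM (in vivo). FGOs had 745, 826 and 1016 CPM (iPSC-derived), 547, 888 and 975 CPM (gonad-derived), 738, 841 and 1008 CPM (6 dpp) and 616, 719 and 801 CPM (in vivo). The stages overlapped in each source. Log2 ratios of growth were 0.33 in iPSC-derived, 0.21 in gonad-derived and 0.37 in the in vivo oocytes. The lowest gonad-derived value came from FGO 19, without which the ratio was 0.23. In vivo GROs 17 to 24 ranged from 442 to 596 CPM and GROs 1 to 16 from 498 to 698 CPM, and growth in vivo was 0.52 against the former and 0.31 against the latter. Gonad-derived GROs exceeded in vivo GROs by 0.43 on the log2 scale (0.37 against GROs 1 to 16 and 0.58 against GROs 17 to 24), and 20 of 24 lay above the highest in vivo GRO.

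Sqle (Entrez 20775, chr15:59315092-59331193), which puts oxygen into squalene and is a rate-limiting step of the later pathway, was lower in FGOs. Its pooled level was 51.6 CPM in iPSC-derived, 50.2 CPM in gonad-derived and 47.4 CPM in the in vivo GROs. FGOs had 32.6 CPM in iPSC-derived, 36.1 CPM in gonad-derived, 29.5 CPM in 6 dpp and 31.6 CPM in the in vivo oocytes. The sources were close to each other at each stage.

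Ranges of Sqle in GROs ran from 27.3 to 90.7 CPM in iPSC-derived, 34.6 to 74.3 CPM in gonad-derived and 26.9 to 71.1 CPM in the in vivo oocytes, with medians of 50.7, 49.7 and 48.0 CPM. In FGOs they ran from 19.5 to 59.2 CPM in iPSC-derived, 27.6 to 55.5 CPM in gonad-derived, 18.6 to 46.7 CPM in 6 dpp and 21.6 to 43.1 CPM in the in vivo oocytes, with medians of 29.3, 32.9, 28.8 and 31.3 CPM. All 3 ratios of growth were below 0, at -0.65 in iPSC-derived, -0.47 in gonad-derived and -0.58 in the in vivo oocytes, although the ranges overlapped. Of all pairs of 1 FGO and 1 GRO, the FGO was the higher one in 14.3%, 13.0% and 10.0%.

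Lss (Entrez 16987, chr10:76531565-76557139) varied least between groups apart from in vivo FGOs. GROs had 22.7 CPM in iPSC-derived, 19.6 CPM in gonad-derived and 21.2 CPM in the in vivo oocytes, and FGOs had 22.9 CPM in iPSC-derived, 21.5 CPM in gonad-derived, 21.3 CPM in 6 dpp and 15.8 CPM in the in vivo oocytes. Single GROs lay between 13.0 and 32.4 CPM and single FGOs between 9.20 and 39.9 CPM, with medians of 22.3, 19.7 and 20.7 CPM in iPSC-derived, gonad-derived and in vivo GROs and of 22.1, 20.5, 20.8 and 15.9 CPM in iPSC-derived, gonad-derived, 6 dpp and the in vivo FGOs. Growth gave log2 ratios of 0.01 in iPSC-derived, 0.13 in gonad-derived and -0.42 in the in vivo oocytes. The 6 dpp FGOs exceeded in vivo FGOs by 0.42 on the log2 scale, with overlapping ranges.

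Cyp51 (Entrez 13121, chr5:4080674-4104697), which removes the first methyl group of lanosterol, was uneven between oocytes. Its pooled level was 30.7 CPM in iPSC-derived, 21.4 CPM in gonad-derived and 18.5 CPM in the in vivo GROs. FGOs had 16.4 CPM in iPSC-derived, 16.7 CPM in gonad-derived, 13.6 CPM in 6 dpp and 13.5 CPM in the in vivo oocytes. The iPSC-derived GROs stood highest, and FGOs were lower than GROs in each source.

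Single oocytes ranged from 7.00 to 44.7 CPM of Cyp51 in iPSC-derived, 5.24 to 40.7 CPM in gonad-derived and 5.86 to 33.4 CPM in the in vivo GROs, with medians of 31.0, 20.3 and 16.6 CPM. In FGOs they ranged from 9.47 to 24.0 CPM in iPSC-derived, 3.74 to 27.2 CPM in gonad-derived, 6.63 to 35.5 CPM in 6 dpp and 7.23 to 26.8 CPM in the in vivo oocytes, with medians of 16.9, 16.7, 10.4 and 13.0 CPM. Log2 ratios of growth were -0.89 in iPSC-derived, -0.35 in gonad-derived and -0.44 in the in vivo oocytes. The in vivo ratio was -0.61 against GROs 1 to 16 and -0.02 against GROs 17 to 24. In the iPSC-derived source, 18 of 23 GROs lay above the highest FGO and 2 lay below the lowest. The iPSC-derived GROs exceeded the gonad-derived GROs by 0.51 on the log2 scale. The highest 6 dpp, in vivo and gonad-derived FGOs were oocytes 12, 7 and 5 and the lowest gonad-derived FGO was oocyte 19, all among those that stood apart.

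**Figure D2:**
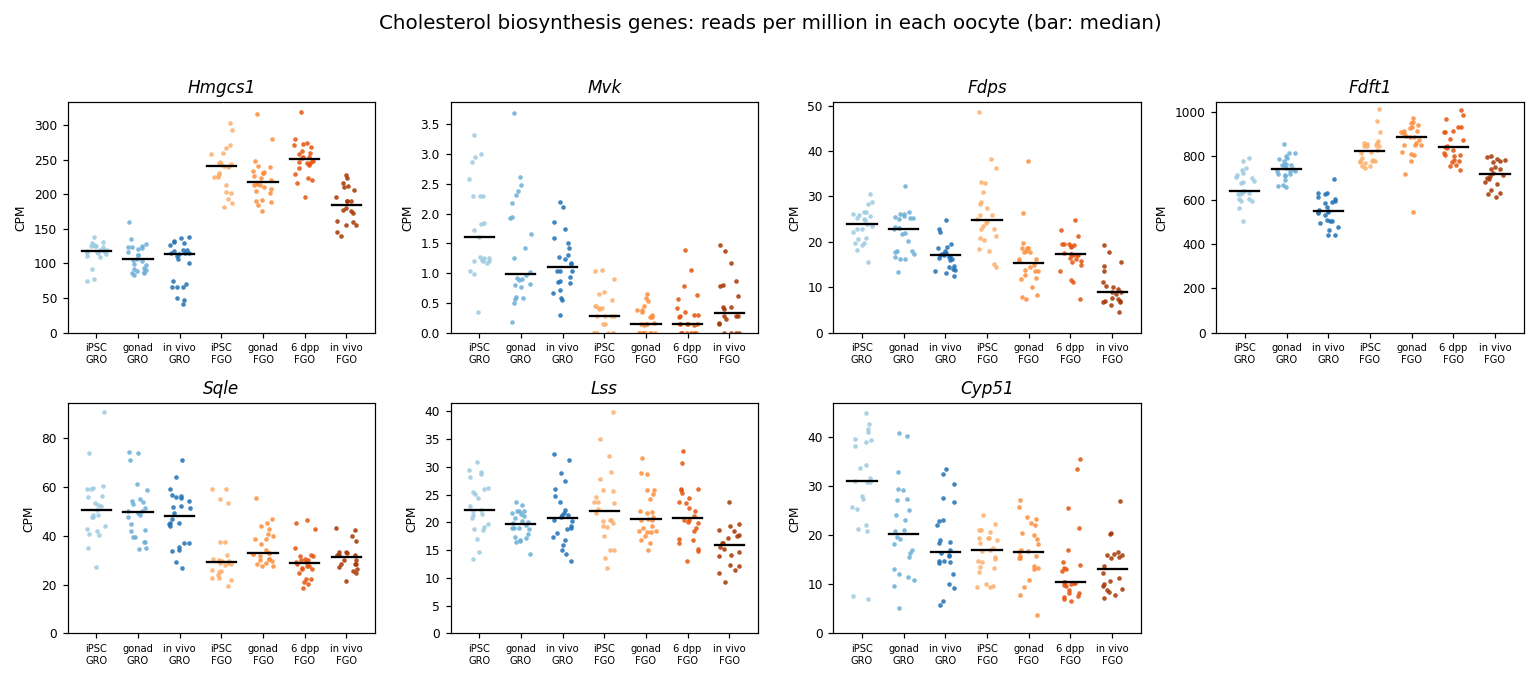
CPM (linear axes from 0) of the 7 measured genes, 1 point per oocyte and a bar at each group's median, GROs in blue and FGOs in orange. Hmgcs1 is higher in FGOs, with GROs up to 161 CPM and FGOs from 140 CPM. Scaled to library totals, no FGO overlaps GROs of its own source, narrowly so in vivo. Mvk, Sqle and Cyp51 have lower medians in FGOs than in GROs of each source with both stages, while Lss differs little.

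Growth took Hmgcs1 and Mvk past 2-fold in the cultured oocytes and, with the pseudocount of 0.5 CPM and all GROs, no measured gene in vivo. In iPSC-derived oocytes 2 of 7 passed, Hmgcs1 upward and Mvk downward, beside 22.0% of all genes tested in either direction (6.69% upward, 15.3% downward). In gonad-derived oocytes the same 2 of 7 passed, beside 15.8% (5.82% upward, 9.98% downward). In vivo 0 of 7 passed, beside 23.7% (10.4% upward, 13.2% downward). The median log2 ratio of the 7 genes was -0.44 in vivo, 0.01 in iPSC-derived and -0.35 in gonad-derived oocytes, against medians over all genes tested of -0.11, -0.11 and -0.05. With counts this small, the shares of 0 and 2 of 7 cannot be set apart from those of all genes.

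In the comparisons of culture steps no measured gene that was tested passed 2-fold. With shares of all genes of 7.04% or less, 0 of 6 or 7 genes cannot be set apart from the rest of the genes. The study separates differentiation of stem cells into germ cell-like cells (IVP), differentiation into oocytes (IVD) and growth of the oocyte (IVG), and each was read at the stage where groups allow it. For IVP@GRO (iPSC-derived over gonad-derived GROs) 0 of 7 passed beside 3.83% of all genes, with log2 ratios from -0.18 for Fdft1 to 0.51 for Cyp51. For IVD@GRO (gonad-derived over in vivo GROs) 0 of 7 passed beside 7.04%, with ratios from -0.11 for Lss to 0.43 for Fdft1. The IVD@GRO ratio of Hmgcs1 was -0.14 against in vivo GROs 1 to 16 and 0.84 against GROs 17 to 24.

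At the FGO stage Mvk was too low to be tested in the first 2 of the 3 comparisons that follow. For IVP@FGO (iPSC-derived over gonad-derived FGOs) 0 of 6 passed beside 6.21%, with ratios from -0.14 for Sqle to 0.68 for Fdps. For IVD@FGO (gonad-derived over 6 dpp FGOs) 0 of 6 passed beside 2.59%, with ratios from -0.18 for Hmgcs1 to 0.29 for Cyp51 and for Sqle. By medians of CPM the ratio of Cyp51 was 0.66. For IVG@FGO (6 dpp over in vivo FGOs) 0 of 7 passed beside 4.38%, with ratios from -0.32 for Mvk to 0.71 for Fdps. The median of the 7 genes was 0.25 in this last comparison, against -0.04 over all genes, and 5 of 7 lay above 0, beside 45.5% of all genes. Of the 5, Cyp51 at 0.02 had no firm direction, since it was -0.31 by medians of CPM and -0.05 without the oocytes that stood apart. Neighbouring comparisons share groups, for example gonad-derived GROs in IVP@GRO and IVD@GRO and in vivo FGOs in IVG@FGO and in growth in vivo, so their ratios are not independent of each other.

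**Figure D3:**
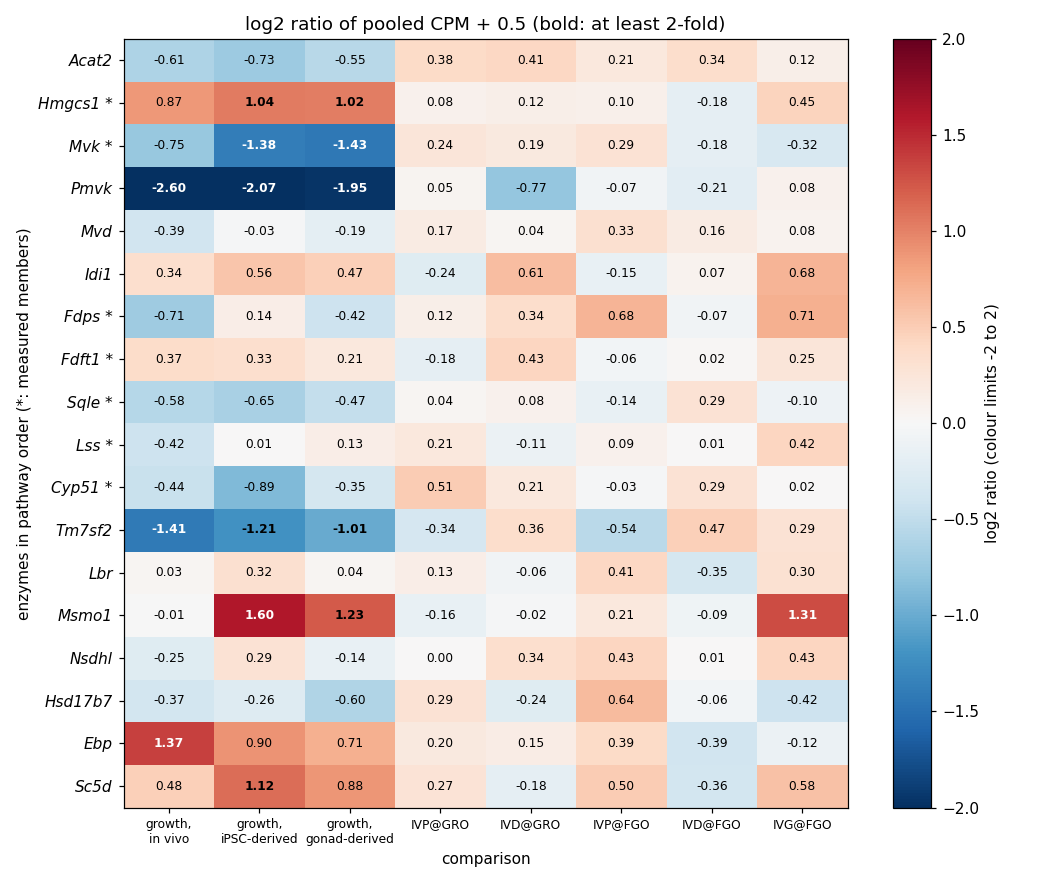
Log2 ratio of pooled CPM + 0.5 of 18 enzymes in pathway order (rows, measured members starred) in the 8 comparisons (columns), red where the first group is higher and blue where it is lower, with ratios of at least 2-fold in bold. Among measured members the bold values are 1.04 and 1.02 for Hmgcs1 and -1.38 and -1.43 for Mvk, all in growth of cultured oocytes.

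Of the 11 other enzymes of the pathway described here, 1 was at least 2-fold higher and 2 were at least 2-fold lower from GROs to FGOs in vivo, beside 23.7% of all genes either way. In iPSC-derived oocytes 2 were higher and 2 lower, beside 22.0%, and in gonad-derived oocytes 1 was higher and 2 were lower, beside 15.8%. In the comparisons of culture steps the count was 0 of 11 for IVP@GRO, IVD@GRO, IVP@FGO and IVD@FGO and 1 of 11, upward, for IVG@FGO, beside 4.38%. Shares of so few genes cannot be set apart from those of all genes.

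Msmo1, the oxidase that takes methyl groups off carbon 4 of the sterol, was the enzyme past 2-fold in IVG@FGO. Its pooled level was 40.5, 45.2 and 45.8 CPM in iPSC-derived, gonad-derived and in vivo GROs. FGOs had 124 CPM in iPSC-derived, 107 CPM in gonad-derived, 113 CPM in 6 dpp and 45.5 CPM in the in vivo oocytes. All FGOs grown in culture were thus higher as groups, while in vivo FGOs were at the level of GROs.

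The lowest 6 dpp FGO, at 59.3 CPM of Msmo1, lay above the highest in vivo FGO, at 58.5 CPM, a lack of overlap shared by 0.0773% of all genes in that direction. The log2 ratio was 1.31, and 1.27 without oocytes above 50 CPM of somatic trace genes. Growth gave ratios of 1.60 in iPSC-derived and 1.23 in gonad-derived oocytes against -0.01 in vivo, a difference that was not tested.

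Sc5d, the lathosterol oxidase, was at 115, 95.6 and 108 CPM in iPSC-derived, gonad-derived and in vivo GROs and at 250, 177, 227 and 151 CPM in iPSC-derived, gonad-derived, 6 dpp and the in vivo FGOs. Its ratio of growth was 1.12 in iPSC-derived, 0.88 in gonad-derived and 0.48 in the in vivo oocytes. Ebp, the sterol isomerase, passed 2-fold upward in vivo alone (1.37, from 2.14 to 6.31 CPM), with 0.90 and 0.71 in iPSC-derived and gonad-derived oocytes.

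Lower in FGOs were Pmvk, the kinase after Mvk, and Tm7sf2, a C14 sterol reductase. Pmvk went from 14.5 to 3.08 CPM in iPSC-derived, from 14.0 to 3.25 CPM in gonad-derived and from 24.2 to 3.58 CPM in the in vivo oocytes, at log2 ratios of -2.07, -1.95 and -2.60. In vivo FGOs were split in Pmvk, with oocytes 1, 5, 7, 16, 19 and 22 at 5.66 to 11.7 CPM and the others at 0.275 to 2.45 CPM. Without the in vivo FGOs that stood apart (7, 16 and 19) the in vivo ratio was -2.99, which keeps oocytes 1, 5 and 22. By medians of CPM it was -3.34. Scaled to library totals, the iPSC-derived stages did not overlap for Pmvk, which held for 5.62% of all genes in the lower direction. The margin was narrow (lowest GRO 7.69 CPM, highest FGO 7.32 CPM), and with TMM size factors these stages overlapped. Mvk and Pmvk, which act one after the other on mevalonate, were thus both lower in FGOs, while Hmgcs1, which acts before them, was higher in each source. Tm7sf2 had ratios of -1.21, -1.01 and -1.41, and its in vivo stages did not overlap (1.19% of all genes). The gonad-derived ratio was within 2-fold under both other scalings (-0.98 and -0.97), by medians of CPM (-0.89) and without FGO 19 (-0.96), which leaves 1 lower enzyme there.

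Per length, Lbr, Sc5d and Msmo1 were the highest of the other enzymes, with Lbr at 158 to 217 RPKM over the groups, close to Fdft1. Lbr is a second C14 sterol reductase and also a protein of the nuclear envelope, and it was above Tm7sf2 in each group.

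**Figure D4:**
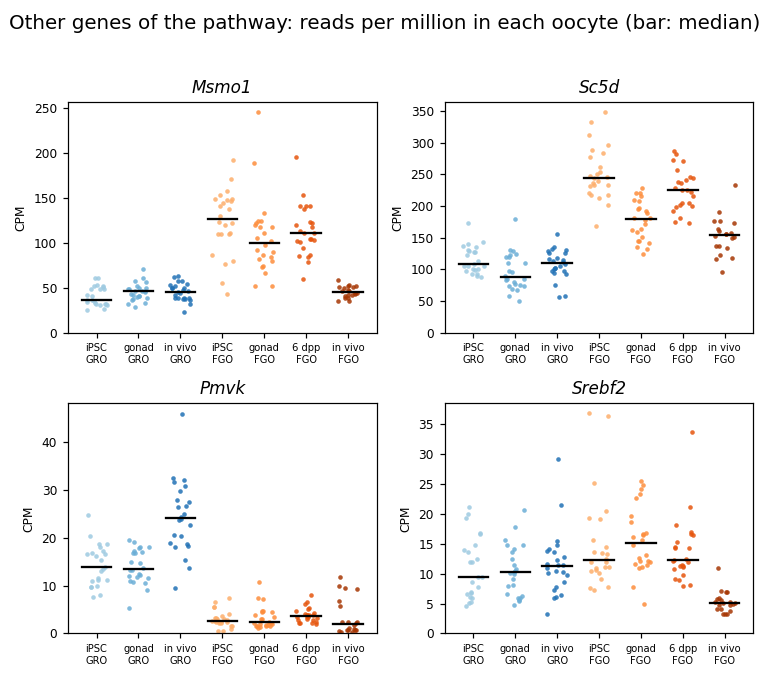
CPM (linear axes from 0) of Msmo1, Sc5d, Pmvk and Srebf2, 1 point per oocyte and a bar at each group's median, GROs in blue and FGOs in orange. Msmo1 of in vivo FGOs (pooled 45.5 CPM) sits at the level of GROs while FGOs grown in culture are at 107 to 124 CPM, and the pooled level of Srebf2 is lowest in the in vivo FGOs (5.33 CPM).

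Of 13 control genes, those that switch the pathway or break down its enzymes, Srebf2, Insig2, Mylip, Nr1h3 and Mbtps1 passed 2-fold in some comparison. The count was 1 of 13 for growth in vivo (23.7% of all genes), 0 for iPSC-derived growth (22.0%), 3 for gonad-derived growth (15.8%), 1 for IVP@FGO (6.21%), 1 for IVG@FGO (4.38%) and 0 for the remaining comparisons. Srebf2, which encodes SREBP2, had 10.7, 10.6 and 11.5 CPM in iPSC-derived, gonad-derived and in vivo GROs. In FGOs it had 15.2 CPM in iPSC-derived, 15.5 CPM in gonad-derived, 13.6 CPM in 6 dpp and 5.33 CPM in the in vivo oocytes. Growth gave log2 ratios of 0.48, 0.54 and -1.05 in iPSC-derived, gonad-derived and the in vivo oocytes, and IVG@FGO 1.28. The in vivo value passed 2-fold narrowly and was -0.98 under both other scalings, -0.86 against in vivo GROs 1 to 16, -1.35 against GROs 17 to 24 and -1.20 without the in vivo FGOs that stood apart.

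The remaining control genes past 2-fold were single cases. In gonad-derived oocytes Insig2, an anchor of SCAP, had a growth ratio of -1.02, Mylip, a ubiquitin ligase of lipoprotein receptors, -1.05 and Nr1h3, the sterol receptor LXR alpha, 1.14 at no more than 1.52 CPM. These too lay near 2-fold, since Insig2 was at -0.99 and -0.98 under the other scalings and, with a pseudocount of 2 CPM, Mylip was at -0.82 and Nr1h3 at 0.54. Mbtps1, the site-1 protease that frees SREBP2, had 36.9 CPM in iPSC-derived and 87.3 CPM in gonad-derived FGOs with no overlap (0.194% of all genes in that direction), a ratio of -1.23. Highest per length were Insig1, at 140 to 244 RPKM over the groups, Nr1h2, the sterol receptor LXR beta, at 40.2 to 61.7 RPKM, and Scap, at 29.6 to 63.8 RPKM.

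Among 10 measured genes of uptake, efflux and storage, Vldlr and Apoe passed 2-fold. That is 1 of 10 for IVD@GRO (7.04% of all genes), 1 of 10 for iPSC-derived growth (22.0%) and 1 of the 8 tested for gonad-derived growth (15.8%). Vldlr, the VLDL receptor, had a ratio of 1.82 for IVD@GRO (7.07 against 1.64 CPM) and of -1.37 for growth of iPSC-derived oocytes. Apoe, the apolipoprotein, had -1.06 for growth of gonad-derived oocytes. Npc2, Soat1 and Scarb1, which export, esterify and take up cholesterol, were the highest per length at 37.3 to 45.3, 32.3 to 39.5 and 14.9 to 26.5 RPKM.

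Of 8 genes that draw farnesyl or geranylgeranyl units into other products, 0 passed 2-fold in any of the 8 comparisons, beside shares of all genes from 2.59% (IVD@FGO) to 23.7% (growth in vivo) that 8 genes are too few to be set apart from, with Fnta, Pdss2 and Dhdds the highest per length.

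How far the measured genes varied together between oocytes differed from group to group. Over the 139 oocytes of all groups but the in vivo GROs, which fall into clusters, with group means removed from log2(CPM + 1), Pearson r of the 21 pairs ran from -0.19 (Hmgcs1 with Fdps) through a median of 0.0925 to 0.31 (Sqle with Cyp51). Within single groups Sqle with Cyp51 ran from 0.06 in gonad-derived FGOs, where it was 0.40 without FGO 19, to 0.70 in iPSC-derived GROs. Hmgcs1 with Fdps was at 0.56 in iPSC-derived FGOs and at -0.76 in the in vivo FGOs, or -0.63 there without oocytes 7, 16 and 19. In vivo FGOs 1, 5 and 22 stayed in the latter value, with Fdps (14.7, 11.1 and 15.6 CPM) above the other kept oocytes (up to 10.2 CPM). Hmgcs1 with Fdft1 turned on single oocytes. It was 0.61 in the in vivo FGOs but 0.34 without oocytes 7, 16 and 19, and -0.20 in gonad-derived FGOs but 0.58 without FGO 19. All oocytes of a group share the culture and the scaling to the library total, and Mvk carries few reads, so these values are descriptions. Hmgcs1 and Msmo1 correlated at 0.22 over the same 139 oocytes, from -0.34 in 6 dpp FGOs to 0.50 in iPSC-derived FGOs.

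Gonad-derived FGO 19 was unusual across the pathway. It had 1548 CPM of Insig1, where its group had a median of 553 CPM, and 245 CPM of Msmo1, the highest of the group. At the same time it had the lowest Fdft1 (547 CPM), Cyp51 (3.74 CPM) and Lbr (95.5 CPM) of its group. Its depth was 6.95 M reads and its somatic trace genes were at 13.1 CPM.

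Among 7496 genes with at least 5 CPM in every group, those most like the mean of the measured members over oocytes, with group means removed, were Ipo5 (Pearson r = 0.56), Ogdh (0.55), Copg1 (0.54), Aco1 (0.54) and Mtmr14 (0.54). By Spearman correlation 2 of these 5 remained among the first 5, and without in vivo GROs 1 of 5. Genes of the lists were spread over the order, with oocyte markers near both ends (Zp1 at rank 35, 0.49, and Oosp1 at rank 7486, -0.55). Of the pathway and its control, Srebf2 was at rank 45 (0.48), Lbr at rank 4287 (-0.01) and Nus1, of the dolichol branch, at rank 7399 (-0.47). Each measured member was set against the mean of the other members, where Sqle (0.42) and Cyp51 (0.37) correlated most and Fdft1 (0.05) least among the 6 members that had enough reads. Ranks and correlations of listed genes and members in this paragraph include the in vivo GROs, whose clusters remain when group means are removed.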

How the data were processed

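The deposited table holds the authors' unnormalized read counts, with a column for each oocyte, with an exonic length for each gene as another deposited value (unit of length, bases). Per the submitters' processing notes and the study's methods, single-end 75-base reads were aligned with STAR to GRCm38 (mm10), and uniquely mapped reads over the exons of 1 randomly chosen transcript per gene were counted with QuasR. Strand use is not given in the sources used here, so overlapping genes on opposite strands are uncertain, and reads that fit near-identical copies equally well were not counted. Spike-ins were not used here, so every level is relative to the library total and says nothing of RNA per oocyte.

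Counts were pooled over the oocytes of a group and scaled to the column totals. A gene entered a comparison if 3 or more oocytes of the groups compared exceeded 1 CPM. No p-value was computed, because the labels name no source behind an oocyte. Identifiers of 21907 of 21950 genes matched RefSeq symbols. No 2 columns were identical (0 pairs) and 0 columns were left unused. Ratios were tested on simulated data. Named genes are the measured members, every gene of the other lists past 2-fold, the 3 highest of each list per length and the 5 most correlated genes. The members and lists were chosen with earlier results of these data known. Some genes of the lists are not reported here, and counts over the lists leave them out. Alternatives were TMM (edgeR 4.0.16) and DESeq2 1.42.0 size factors, other pseudocounts, other summaries and leaving out oocytes. Software was R 4.3.3 and Python 3.11.15.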

Additional observations from a re-analysis of the deposited data

Results flagged for a closer look

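Scarb1, which encodes a receptor for HDL, differed between sources in growth. Every in vivo FGO lay above the median in vivo GRO (51.4 CPM), since the lowest was at 58.6 CPM, and every iPSC-derived FGO lay below the median iPSC-derived GRO (66.3 CPM), since the highest was at 59.4 CPM. The log2 ratios of FGOs to GROs were 0.47 in vivo and -0.57 in iPSC-derived oocytes, which differ by 1.04, with -0.21 in gonad-derived oocytes. The difference was not tested. The groups held 20 to 24 oocytes, and chance was not estimated.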

How the results depend on the processing

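The summed level of the 7 measured genes moved by less than the spread between oocytes under 78 of 81 alternative values over the 8 comparisons, and so did 760 of 773 values of single genes (the members, and listed genes past 2-fold). That spread is of single oocytes, and a ratio can cross 2-fold within it, as Mvk did in vivo, so these counts do not show that a ratio is firm. The count of members past 2-fold changed with the pseudocount: for growth in vivo it was 1 in place of 0 with 0.1 CPM (Mvk), and for growth of iPSC-derived and of gonad-derived oocytes it was 1 in place of 2 with 2 CPM, since Mvk has few reads. With 1 oocyte left out at a time the count for gonad-derived growth ran from 1 to 2, and it was 1 without gonad-derived FGO 19, an alternative chosen after seeing the data, because Hmgcs1 was then at 0.99. Taking 1 set of in vivo GROs, also chosen after seeing the data, moved the summed level: with only GROs 17 to 24 the summed level was at 0.57 for growth in vivo and 0.56 for IVD@GRO and 1 member (Hmgcs1) passed 2-fold in vivo, and with only GROs 1 to 16 the sum was at 0.26 for IVD@GRO, beside 0.36 for both with all GROs. By CPM without length, Lss ranked 4th, Fdps 5th and Cyp51 6th. By Spearman correlation 2 of the 5 genes most like the members were shared, and without in vivo GROs, chosen after seeing the data, 1 of 5. Of the members tested, 4 of 6 lay above 0 for IVD@FGO and 3 of 6 for IVP@FGO, which became 2 and 4 under the other scalings, so these small ratios have no firm direction. Scaling moved the median over all genes by at most 0.07 on the log2 scale. Leaving out oocytes above 10 CPM of granulosa and cumulus markers gave no value, as every oocyte is above it. Leaving out those above 50 CPM of somatic trace genes was chosen after seeing the data. No paired analysis was possible because the labels do not say that a number pairs oocytes of different groups and no test was made, although in vivo GROs divide by their numbers. Of the measured members, Mvk has the fewest reads, so depth limits it most.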
